A study of Mus musculus with 23 samples.

Results

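Matrix metalloproteinases (MMPs) and their inhibitors, the TIMPs, were followed as 10 genes in PyMT mammary tumors in which IL-38 had been neutralized or deleted, and after γδ TCR blockade. The members were taken by name: the metalloproteinases Mmp2, Mmp3, Mmp10, Mmp11, Mmp13, Mmp14 and Mmp19 and the inhibitors Timp1, Timp2 and Timp3, which are 10 of the 47643 gene identifiers in the deposited tables. Each symbol matched 1 identifier.

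All mice were female C57BL/6 animals carrying the PyMT transgene, in which polyoma middle T antigen drives tumors of the mammary epithelium. In the neutralization experiment, 5 mice received human IgG1 isotype control (isotype IgG) and 6 received the IL-38 antibody e04 (anti-IL-38), at weekly doses of 100 µg during 5 weeks, which began when the first tumor measured 0.6 cm. In the genotype experiment, 4 WT mice and 4 IL-38 knockout mice received hamster IgG (WT + IgG, IL-38 KO + IgG), and 4 further IL-38 KO mice received the γδ TCR antibody UC7-13D5 (IL-38 KO + anti-γδTCR). In these 12 mice the antibodies were started at 13 weeks of age with 500 µg and continued with weekly doses of 200 µg, over 5 weeks in all. The tumors were whole tissue, dissociated with enzymes before RNA was isolated, and each library is 1 mouse.

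MMPs are zinc-dependent proteases that are mostly secreted as inactive proenzymes and together cut most proteins of the extracellular matrix. TIMPs bind the active site of the mature enzymes, and TIMP2 also bridges MMP14 and pro-MMP2 at the cell surface, where MMP14 activates pro-MMP2. In mammary tumors many of these genes are transcribed by fibroblasts rather than by the carcinoma cells, and macrophages make some of them, so in whole tumors their RNA depends on which cells are present.

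Several MMP genes lie side by side on chromosome 9, in the order Mmp13, Mmp12, Mmp1b, Mmp3, Mmp10, Mmp8, Mmp27, Mmp20 and Mmp7, which counts the 9 protein-coding genes of GENCODE M21. Mmp13, Mmp3 and Mmp10 are the 3 members in this cluster, and they also shared a promoter feature that the choice of genes did not use. RefSeq (GRCm38.p6) held a promoter for 8 of the 10 genes, namely all but Mmp2 and Mmp19. The motif TGANTCA, the letters of an AP-1 site, was searched on both strands in the 250 bases before the start. It was found in 3 of the 8, which were the 3 genes of the cluster, against 6.75% of 32851 promoters in the table. The sequence TATAAA, searched the same way, was found in the same 3 genes and in 12.4% of all promoters. The last 80 bases before each start are shown because the 3 genes carry the same motif close to the start. In these tumors Mmp13 and Mmp3 had different RNA patterns, and Mmp10 was hardly detected. Capitals mark TGANTCA. It began 35 bases before the start in Mmp13, 46 in Mmp3 and 63 in Mmp10.
Mmp13, chr9:7272434-7272513, plus strand: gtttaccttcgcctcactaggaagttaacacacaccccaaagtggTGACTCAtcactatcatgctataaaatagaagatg
Mmp3, chr9:7445742-7445821, plus strand: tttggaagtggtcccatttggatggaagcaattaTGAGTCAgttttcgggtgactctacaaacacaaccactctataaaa
Mmp10, chr9:7502262-7502341, plus strand: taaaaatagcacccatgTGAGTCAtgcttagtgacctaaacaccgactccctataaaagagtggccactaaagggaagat
A match describes letters in the window, and binding was not measured here.

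RNA was measured with QuantSeq, which reads a short stretch near the 3′ end of each transcript. Levels are given in CPM, the reads of a gene per 1000000 reads counted on genes in that library, with no division by transcript length because 1 read is made per transcript. Between 6273049 and 15879164 reads were counted per library, so a gene without a read has an upper limit of 0.189 to 0.478 CPM (3 reads). Reads were not tagged by molecule, and such limits cover counting error only. A set of 5 libraries stood apart from the other 18, namely all 4 of IL-38 KO + anti-γδTCR and replicate 4 of IL-38 KO + IgG. Processed pseudogenes took 1.31% to 1.98% of their reads against 0.0943% to 0.191% in the other 18, and their totals were the lowest (6273049 to 8794202 reads against 10138353 to 15879164). The gene Gm42418 alone took 11.3% to 20.1% of their reads against 2.62% to 5.70% in the other 18. The column labels number these 5 libraries in an unbroken run, and replicate 3 of IL-38 KO + anti-γδTCR also carries the mark rep. What these marks stand for is not given. Comparisons that include replicate 4 of IL-38 KO + IgG were therefore also made without it. Il1f10, which encodes IL-38, had 0 reads in all 23 libraries, so its level could not check the knockout.

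The 10 genes spanned a wide range of levels. Timp2 was the most abundant member in every group, with group means from 887 to 1240 CPM. The means of Timp3 and Mmp14 were 191 to 700 CPM and those of Mmp13 ran from 9.02 to 244 CPM, whereas the means of Mmp2, Mmp19, Mmp3 and Timp1 lay between 11.7 and 90.3 CPM and those of Mmp11 between 3.90 and 8.04 CPM. Mmp10 (stromelysin-2) was hardly detected. It had 38 reads in all, at most 19 in 1 library, and none in 15 of the 23 libraries, so it did not reach the minimum mean normalized count of 5 and was not tested. The plot of levels by group shows the members side by side.

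**Figure D1:**
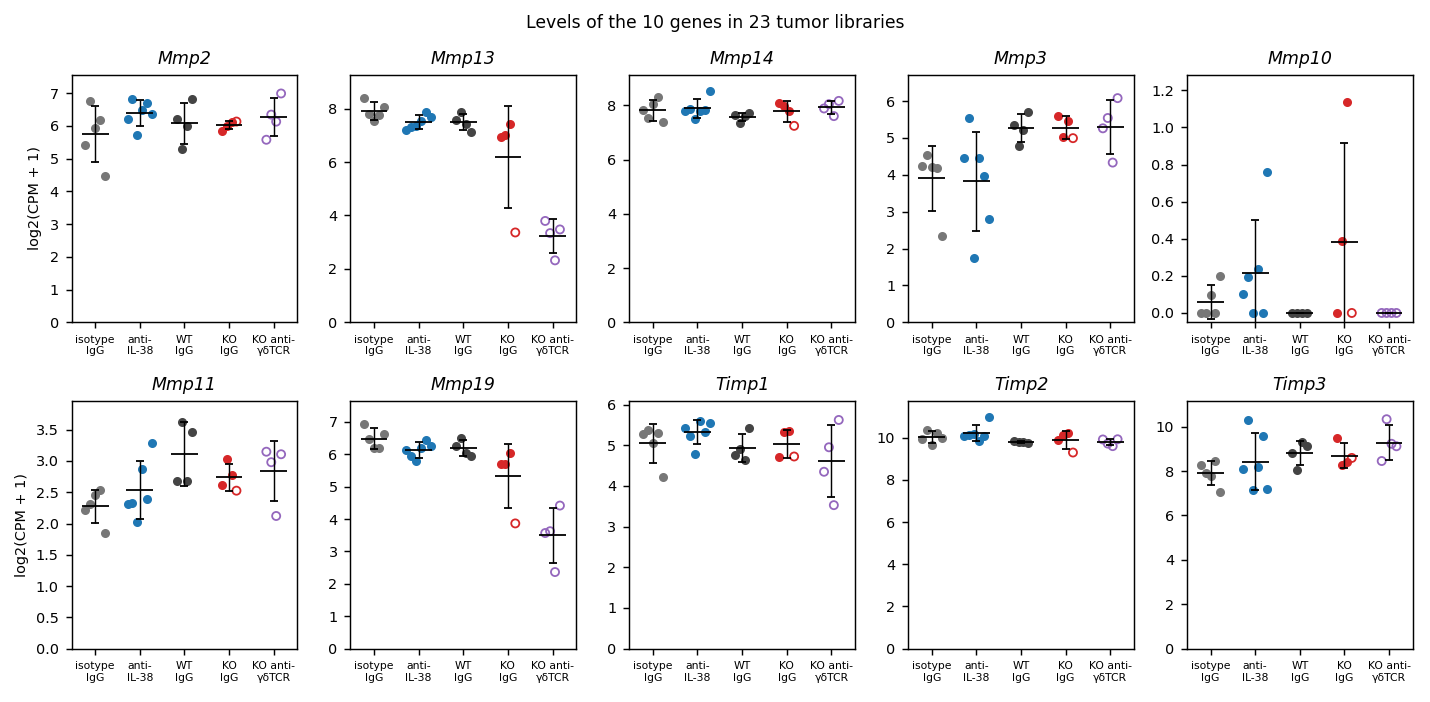
Levels of the 10 genes as log2(CPM + 1) in 23 tumor libraries, each panel with its own axis. Points are mice (5, 6, 4, 4 and 4 from left to right), open circles mark the 5 libraries with a pseudogene share over 1%, and lines and bars give the mean and SD of each group; Mmp13 and Mmp19 are low in the open circles only.

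Mmp13 (collagenase-3), which cleaves fibrillar collagen, and Mmp19, which cleaves basement membrane proteins, varied most between groups. Mmp13 measured 183, 214, 224, 263 and 334 CPM in the isotype IgG tumors. In the anti-IL-38 tumors the lowest, median and highest values were 147, 173 and 231 CPM. WT + IgG tumors had 138, 171, 191 and 231 CPM. These 3 groups overlapped. IL-38 KO + IgG tumors had 123, 129 and 170 CPM and, in replicate 4, 9.28 CPM. IL-38 KO + anti-γδTCR tumors had 3.99, 9.11, 10.1 and 12.9 CPM. The value of replicate 4 thus fell inside the range of the anti-γδTCR group and far below its own.

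Mmp19 followed the same order. It measured 71.8 to 122 CPM in isotype IgG, 53.9 to 86.7 CPM in anti-IL-38 and 61.2 to 89.8 CPM in WT + IgG tumors. In IL-38 KO + IgG tumors it was 51.3, 51.4 and 64.5 CPM, and 13.6 CPM in replicate 4. In IL-38 KO + anti-γδTCR tumors it was 4.14, 10.9, 11.3 and 20.4 CPM. For both genes the 5 libraries set apart did not overlap with the other 18, with a median of 9.28 against 183 CPM for Mmp13 (19.8-fold) and 11.3 against 72.3 CPM for Mmp19 (6.38-fold). These were 2 of the 9 members with a mean of at least 5 reads, and 5.71% of all genes with that mean were likewise lower in the 5 libraries without overlap.

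Mmp2 (gelatinase A), which degrades denatured and basement membrane collagen, measured 21.4, 42.0, 60.6, 71.2 and 107 CPM in isotype IgG tumors. Anti-IL-38 tumors had a lowest, median and highest value of 51.9, 85.1 and 113 CPM. The 2 groups overlapped, although 5 of 6 anti-IL-38 tumors lay above the isotype IgG median. WT + IgG tumors had 38.5 to 112 CPM, IL-38 KO + IgG tumors 56.7 to 69.1 CPM and IL-38 KO + anti-γδTCR tumors 46.7 to 126 CPM. Mmp14 (MT1-MMP), the membrane-bound activator of pro-MMP2, was the steadiest of the proteases. Its group means were 231 ± 61.3 CPM (SD, n = 5) in isotype IgG, 242 ± 66.3 (n = 6) in anti-IL-38, 191 ± 20.2 (n = 4) in WT + IgG, 224 ± 52.7 (n = 4) in IL-38 KO + IgG and 245 ± 39.9 (n = 4) in IL-38 KO + anti-γδTCR tumors.

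Mmp3 (stromelysin-1), which cleaves proteoglycans and activates other pro-MMPs, differed mainly between the experiments. It measured 4.09, 17.1, 17.5, 17.8 and 22.4 CPM in isotype IgG tumors and 2.38 to 45.5 CPM (median 17.7) in anti-IL-38 tumors. WT + IgG tumors had 26.6, 36.3, 39.6 and 51.3 CPM and IL-38 KO + IgG tumors 30.9, 31.5, 43.4 and 47.6 CPM. The isotype IgG and WT + IgG groups, both with intact Il1f10, thus did not overlap. They differed in antibody, dose and start of treatment, which cannot be told apart here, and this difference was not tested. Mmp11 (stromelysin-3), known from the fibroblasts around carcinoma cells, was low, with 21 to 146 reads per library. Its range was 2.61 to 4.78 CPM in isotype IgG and 5.38 to 11.4 CPM in WT + IgG tumors, which again did not overlap. Of all genes with a mean of at least 5 reads in these 2 groups, 7.46% did not overlap between them.

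Among the inhibitors, Timp1, which acts on most secreted MMPs and on MMP14 only weakly, had group means from 27.0 ± 16.2 CPM (SD, n = 4) in IL-38 KO + anti-γδTCR to 39.5 ± 7.59 CPM (SD, n = 6) in anti-IL-38 tumors. Timp2 was tightest in WT + IgG tumors (887 ± 29.6 CPM, SD, n = 4) and reached 2029 CPM in replicate 6 of anti-IL-38. Timp3, which is held in the matrix and also inhibits ADAM proteases, was the most scattered inhibitor. It measured 143, 146, 274, 288, 776 and 1255 CPM in the 6 anti-IL-38 tumors. In isotype IgG tumors it was 132 to 355 CPM, in WT + IgG tumors 262 to 628 CPM, in IL-38 KO + IgG tumors 306 to 722 CPM and in IL-38 KO + anti-γδTCR tumors 350 to 1295 CPM. When the groups were ordered by mean, each of the 10 genes overlapped in range between every pair of neighbours in that order. For Mmp13 and Mmp19, IL-38 KO + IgG overlapped with IL-38 KO + anti-γδTCR through replicate 4 alone, and without it the ranges were 123 to 170 against 3.99 to 12.9 CPM and 51.3 to 64.5 against 4.14 to 20.4 CPM.

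As a description of the balance, the summed level of the 3 inhibitors was divided by that of the 7 proteases in each tumor. The median ratio was 2.09 (1.77 to 2.53) in isotype IgG, 2.91 (2.14 to 3.93) in anti-IL-38, 2.45 (2.10 to 2.88) in WT + IgG, 2.90 (2.76 to 3.74) in IL-38 KO + IgG (2.76, 2.76 to 3.04, without replicate 4) and 4.27 (3.05 to 5.21) in IL-38 KO + anti-γδTCR tumors. Without Mmp13 and Mmp19 the medians lay between 4.30 and 5.09, and all groups overlapped. Leaving out these 2 proteases thus narrowed the spread of the medians, but the inhibitors differed as well. In the group order above, the median sum of the inhibitors was 1329, 1656, 1424, 1529 and 1483 CPM. That of the 7 proteases was 628, 604, 570, 544 and 384 CPM.

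To ask which members follow the fibroblasts of a tumor, each gene was correlated with the mean level of 12 fibroblast markers (Col1a1, Col1a2, Col3a1, Pdgfra, Dcn, Lum, Dpt, Fap, Postn, Thy1, Pdpn and Fbln1) after removal of the group means. All 12 markers were detected, and their summed level was 1461 to 6735 CPM in the 18 libraries and 3153 to 9933 CPM in the 5. Of 10 relations over 23 libraries, 3 passed the permutation test within groups (two-sided, 100000 resamples, Benjamini-Hochberg adjusted over the 10). Mmp3 had Pearson's r = 0.78 (p = 0.00013, adjusted 0.0013) and Spearman's rho = 0.72 (permutation p = 0.00073, adjusted 0.00363). Timp1 had r = 0.74 (permutation p = 0.00048, adjusted 0.0024) and rho = 0.63 (p = 0.00109, adjusted 0.00363), and Mmp2 had r = 0.72 (p = 0.00095, adjusted 0.00317) and rho = 0.72 (p = 0.00077, adjusted 0.00363).

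Without the 2 libraries farthest from the median of the marker level, r was 0.70 for Mmp3, 0.63 for Timp1 and 0.67 for Mmp2, and of the 3 only Mmp3 still passed (adjusted permutation p = 0.035, 0.0657 and 0.0669). Over the 18 libraries alone r was 0.82, 0.75 and 0.70, with adjusted permutation p = 0.0087, 0.0144 and 0.0144. There, without the 2 farthest libraries, r fell to 0.54, 0.49 and 0.51 and none of the 3 passed (adjusted permutation p = 0.106, 0.248 and 0.248). The calls for Timp1 and Mmp2, and that for Mmp3 among the 18, were thus lost without the 2 farthest libraries. Leaving these out also narrows the range of the marker level, so it cannot tell whether the relations rested on them. Mmp14 (r = 0.49, adjusted permutation p = 0.0702), Mmp11 (r = 0.46, p = 0.127) and Timp3 (r = 0.35, p = 0.343) did not pass. Timp2 was closest to 0 (r = -0.00014, adjusted permutation p = 0.999), and Mmp10 had too few reads to be read (r = 0.07, p = 0.775).

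For Mmp13 and Mmp19 no relation with the fibroblast markers passed the test. Because both genes split the libraries into 2 clusters, their relations are given over the 18 libraries only. There r with the fibroblast markers was -0.35 for Mmp13 (rho = -0.50) and -0.14 for Mmp19 (rho = -0.31), with adjusted permutation p = 0.273 and 0.688. Without the 2 farthest libraries r was -0.63 and -0.58 (adjusted permutation p = 0.106 for both). With 8 macrophage markers (Adgre1, Csf1r, Cd68, C1qa, C1qb, C1qc, Mrc1 and Cd14), a comparison chosen after the data were seen, r was 0.70 for Mmp13 (permutation p = 0.00164, adjusted 0.0082; rho = 0.72) and 0.75 for Mmp19 (permutation p = 0.00054, adjusted 0.0054; rho = 0.66). Without the 2 farthest libraries of that list r was 0.72 and 0.65 (adjusted permutation p = 0.046 and 0.0483). Over the 18 libraries 2 of the 10 genes passed with the macrophage markers, and over all 23 libraries 3 did. The third was Timp1, with r = 0.52 over 18 (adjusted permutation p = 0.106) and 0.64 over 23 libraries (adjusted permutation p = 0.00455), so Timp1 passed with both marker lists when all libraries were used. More cells of a type and more RNA per cell cannot be told apart in whole tumors.

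**Figure D2:**
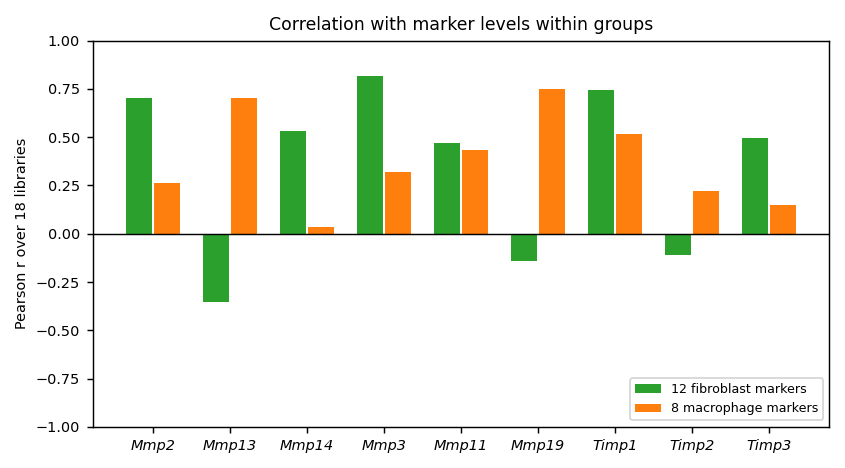
Pearson's r of 9 genes with the mean log2(CPM + 1) of 12 fibroblast markers (green) and of 8 macrophage markers (orange) over 18 libraries, after removal of group means. Mmp3, Timp1 and Mmp2 have the highest bars for fibroblast markers (0.82, 0.75 and 0.70), and Mmp19 and Mmp13 for macrophage markers (0.75 and 0.70).

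For each member the genes with the most similar pattern were also named. Likeness was Pearson's r of log2(CPM + 1) over the 23 libraries among 11323 genes with a mean of at least 5 CPM, given as a description; the points share depth and the split of 5 libraries. Mmp2 was most like Bgn (r = 0.83), a matrix proteoglycan, Sparc (0.82), a collagen-binding matrix protein, and Il34 (0.79). Mmp3 was most like Plb1 (0.90), Fbn1 (0.89), which encodes fibrillin of elastic fibers, and Ccdc120 (0.89). Timp3 was most like Reln (0.95), Crispld1 (0.93) and Htra1 (0.93). Mmp11 was most like Traf7, Upp2 and Lum, all at 0.72, of which Lum encodes the collagen-binding proteoglycan lumican.

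Mmp14 had Ppard (0.77), Hacd3 (0.68) and Igf1r (0.67) as its nearest genes, Timp1 had Mblac1 (0.75), Bphl (0.74) and Ecm1 (0.73), and Timp2 had Sod3 (0.80), Ddah1 (0.78) and Ociad1 (0.76). Mmp13 was most like Lat2 (r = 0.99), an adaptor of myeloid and B cells, Ctsb (0.99), which encodes the lysosomal protease cathepsin B, and Il7r (0.99). Mmp19 was most like Gm49339 (0.99), Slc36a2 (0.99) and Csf2rb2 (0.99), a receptor subunit for IL-3. Over the 18 libraries, where the split plays no part, the genes nearest to Mmp13 were Lpl (0.99), Msr1 (0.99), a macrophage scavenger receptor, and Cd84 (0.99). Those nearest to Mmp19 there were Taok3 (0.96), Ahnak2 (0.96) and an identifier without a symbol (0.96). The nearest genes of other members also changed in part. Over the 18 libraries Timp1 had Esam (0.83), Clec11a (0.81) and Adgrl4 (0.76). Mmp2 had H2-Eb1 (0.84), Tmem119 (0.83) and Sparc (0.83), whereas Timp3 kept Reln (0.95), Htra1 (0.94) and Crispld1 (0.93).

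Within the cluster on chromosome 9, Mmp13 kept a nearly fixed ratio to its neighbour Mmp12 (macrophage elastase). In the 18 libraries there were 0.12 to 0.14 Mmp13 reads for each Mmp12 read (median 0.126), a coefficient of variation of 4.81%, although the Mmp13 level itself varied by 27.3%. The ratio of Mmp19, which lies on chromosome 10, to Mmp12 varied by 9.80%. Mmp8, in the cluster on chromosome 9, had a ratio to Mmp12 that varied by 5.68%. For Mmp3, which lies between Mmp12 and Mmp8, the ratio to Mmp12 varied by 75.9%. In the 5 libraries the ratio was not fixed, with 0.206 to 2.86 Mmp13 reads per Mmp12 read. Mmp12 had 14 to 389 reads per library there and Mmp13 25 to 103, so these ratios rest on few reads.

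**Figure D3:**
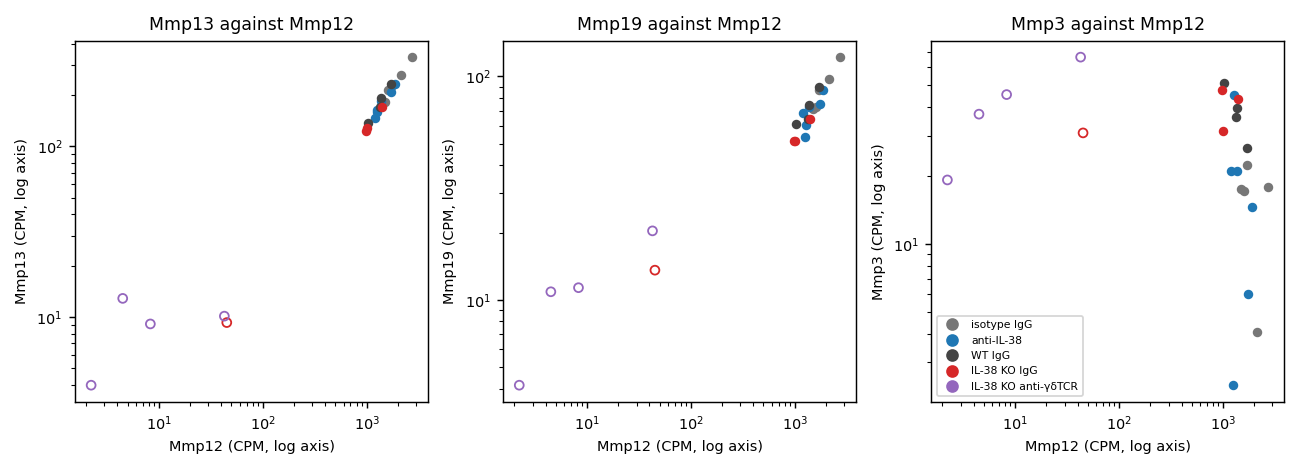
Levels of Mmp13, Mmp19 and Mmp3 against Mmp12 in CPM on log axes, each point 1 tumor library, colored by group, with open circles for the 5 libraries with a pseudogene share over 1%. Mmp13 and Mmp19 rise with Mmp12 among the filled points, whose Mmp13 reads per Mmp12 read stay between 0.12 and 0.14, whereas Mmp3 does not.

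The genes of the cluster did not move as a block. Mmp12 was 986 to 2741 CPM in the 18 libraries and 2.23 to 45.1 CPM in the 5, Mmp8 (neutrophil collagenase) was 198 to 574 CPM against 0 to 7.31 CPM, and Mmp27 was 0.50 to 3.50 against 0 to 0.455 CPM. Mmp3 was 2.38 to 51.3 CPM in the 18 libraries and 19.1 to 66.6 CPM in the 5, which overlapped. The Mmp3 and Mmp13 promoters shown above carry the same motif.

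**Figure D4:**
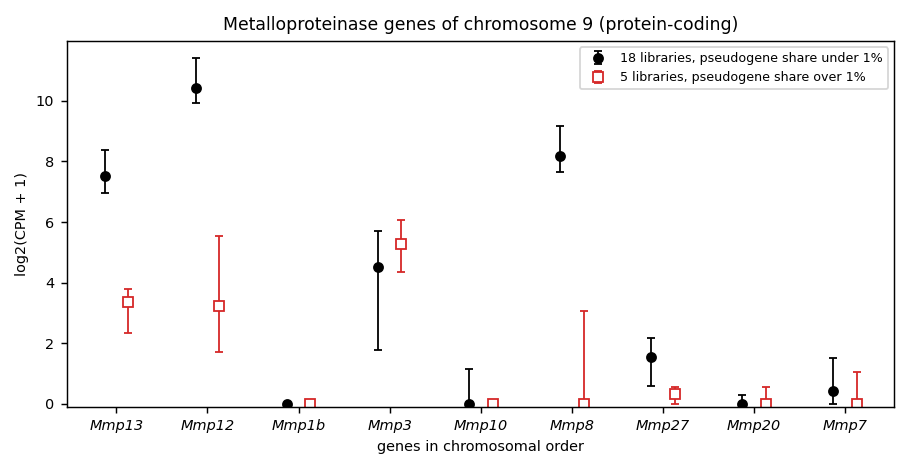
Levels of the 9 protein-coding MMP genes of the chromosome 9 cluster in chromosomal order, as log2(CPM + 1). Symbols are medians and bars run from the lowest to the highest library for the 18 libraries (black circles) and the 5 libraries with a pseudogene share over 1% (red squares); Mmp13, Mmp12, Mmp8 and Mmp27 do not overlap and Mmp3 does.

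To ask whether IL-38 neutralization changed these genes, anti-IL-38 tumors were compared with isotype IgG tumors by limma on log2(normalized count + 1), with a threshold of 0.05 on the Benjamini-Hochberg adjusted p over all genes tested. None of the 9 members tested passed, and neither did any of the 16002 genes (0%). On the whole reads edgeR called 0 genes and DESeq2 75, with no member among them. The largest differences among the members were a log2 fold change of 0.69 ± 0.33 (SE) for Mmp2 (adjusted p = 0.478) and 0.57 ± 0.49 for Timp3 (adjusted p = 0.675). Both depended on single libraries, as Mmp2 was 0.37 without replicate 5 of isotype IgG, and Timp3 was 0.20 without replicate 2 of anti-IL-38, 0.35 without replicate 5 of anti-IL-38 and 0.37 without replicate 5 of isotype IgG. Mmp11 had 0.36 ± 0.28 (adjusted p = 0.638) and Mmp13 -0.36 ± 0.15 (adjusted p = 0.455). Mmp19 had -0.31 ± 0.14 (adjusted p = 0.473), and 6 of 6 anti-IL-38 tumors lay below its isotype IgG median. For Mmp13 this was 5 of 6.

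At an unadjusted p under 0.05, 2 of the 9 members (Mmp13 and Mmp19) were lower and 0 were higher, against 4.91% of all genes lower and 5.61% higher. No member had groups that did not overlap (1.04% of all genes). The median log2 fold change of the 9 members was 0.24, against 0.0019 for all genes. The fibroblast markers stood above this, with a median of 0.40 and 10 of 12 above 0, and the macrophage markers had a median of -0.19 with 5 of 8 below 0. Pericyte and smooth muscle markers (median 0.67, 7 of 8) and basal and myoepithelial markers (0.60, 6 of 8) were mostly above 0. Endothelial (0.17, 8 of 8), skeletal muscle (0.36, 6 of 6) and adipocyte markers (0.16, 4 of 7) were so too, whereas neutrophil markers were below 0 in 6 of 6 (-0.25). T cell and luminal epithelial markers were also above 0 in 8 of 8 genes each (medians 0.80 and 0.70). The 8 T cell markers were low, with a summed level of 2.31 to 33.3 CPM in the 18 libraries. No marker of these lists passed. Their part in the differences of Mmp2, Mmp13 and Mmp19 was not tested.

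To ask whether loss of the gene gave the same picture, IL-38 KO + IgG tumors were compared with WT + IgG tumors. No member passed the limma test, and 1 of 16563 genes did (0.00604%), against 0 with edgeR and 298 with DESeq2, which included no member either. Mmp13 had a log2 fold change of -1.32 ± 0.73 (SE; adjusted p = 0.474) and Mmp19 of -0.85 ± 0.40 (adjusted p = 0.417), but both values rested on replicate 4 of IL-38 KO + IgG. Without that library they were -0.36 ± 0.19 and -0.36 ± 0.17 (adjusted p = 0.439 and 0.376), with all 3 remaining IL-38 KO tumors below the WT + IgG median for both genes. Of the 8 macrophage markers, 7 were below 0 (median -0.40, and -0.22 with 7 of 8 without that library). Adipocyte markers were below 0 in 7 of 7 genes (median -1.11, and -1.51 without it) and skeletal muscle markers above 0 in 6 of 6 (2.13, and 3.18 without it). T cell markers, which were above 0 after anti-IL-38, were below 0 in 7 of 8 genes here (median -0.61, and -0.74 without that library). The part of these cells in the member values was not tested. Mmp14 also rose on leaving that library out, here farther above 0, from 0.23 ± 0.18 to 0.39 ± 0.13 (adjusted p = 0.212). Timp2 rose from 0.12 ± 0.20 to 0.31 ± 0.14 (adjusted p = 0.373).

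Without replicate 4, Mmp14 and Timp2 were the 2 members of 9 in which the 3 IL-38 KO tumors lay above all 4 WT tumors, whereas 7.43% of all genes lay above in the same way. Mmp2 (-0.04 ± 0.25), Mmp3 (0.03 ± 0.21), Timp1 (0.12 ± 0.22) and Timp3 (-0.10 ± 0.30) had, with all libraries, differences smaller than their standard errors, and Mmp11 had -0.39 ± 0.30. Without replicate 4 these were -0.09 ± 0.27, 0.12 ± 0.22, 0.21 ± 0.22, -0.08 ± 0.32 and -0.32 ± 0.32. With all libraries, 0 of 9 members had an unadjusted p under 0.05 (12.1% of all genes), and 0 had groups that did not overlap (7.06%). The median of the members was -0.04, against 0.0053 over all genes.

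With both experiments joined, 10 tumors with IL-38 inhibited were compared with 9 controls. None of the 9 members passed the limma test and none of 16352 genes did (0%), and 0 members had an unadjusted p under 0.05 (10.5% of all genes). With edgeR 1 gene and with DESeq2 70 genes passed, again without a member. Mmp13 had a log2 fold change of -0.72 ± 0.42 (SE; -0.30 ± 0.16 without replicate 4 of IL-38 KO + IgG) and Mmp19 of -0.51 ± 0.25 (-0.28 ± 0.14 without it). Mmp2 had 0.39 ± 0.24, Timp1 0.25 ± 0.17, Timp2 0.21 ± 0.17 and Mmp14 0.18 ± 0.15, and without that library 0.41 ± 0.25, 0.31 ± 0.16, 0.30 ± 0.15 and 0.25 ± 0.14. Of the 10 inhibited tumors, 9 lay above the control median for Mmp14 and for Timp2, and 8 lay below it for Mmp13. The groups joined here come from 2 experiments that differ in antibody, dose and start.

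The difference between the knockout and the antibody effect was tested as an interaction. No member passed, and 1 of 16352 genes did (0.00612%). The 3 largest values were those of Mmp13, Mmp11 and Mmp2. For Mmp2 the knockout effect minus the antibody effect was -0.73 ± 0.47 (SE; adjusted p = 0.747), for Mmp11 -0.75 ± 0.42 (adjusted p = 0.712) and for Mmp13 -0.96 ± 0.73 (adjusted p = 0.783). Without replicate 4 of IL-38 KO + IgG it was -0.78 ± 0.50 for Mmp2, -0.68 ± 0.44 for Mmp11 and 0.0019 ± 0.26 for Mmp13.

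To ask what γδ TCR blockade changed on an IL-38 KO background, IL-38 KO + anti-γδTCR tumors were compared with IL-38 KO + IgG tumors. Mmp13 had a log2 fold change of -2.90 ± 0.79 (SE; adjusted p = 0.0699) and Mmp19 of -1.76 ± 0.51 (adjusted p = 0.0828), so no member passed, and none of 16481 genes did (0%). The call depended on the tool, as edgeR called 0 genes and DESeq2 1030, among them Mmp13 (-3.40, adjusted p = 0.00134) and Mmp19 (-1.80, adjusted p = 0.00579). At an unadjusted p under 0.05, these 2 of 9 members were lower and 0 were higher, against 9% of all genes lower and 12.7% higher. Timp3 had 0.77 ± 0.37, Mmp2 0.42 ± 0.24, Mmp14 0.33 ± 0.17, Mmp11 0.28 ± 0.29, Mmp3 0.20 ± 0.30, Timp2 0.08 ± 0.21 and Timp1 -0.26 ± 0.37, all with an adjusted p of at least 0.267. Without replicate 4 of IL-38 KO + IgG, Mmp14 was 0.17 ± 0.14, Mmp3 0.13 ± 0.32, Timp2 -0.09 ± 0.17, Timp3 0.76 ± 0.40, Mmp2 0.48 ± 0.26, Mmp11 0.22 ± 0.31 and Timp1 -0.35 ± 0.39, so Timp2 changed sign.

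With limma, replicate 4 of IL-38 KO + IgG decided these calls. Without it, Mmp13 fell by 3.85 ± 0.32 on the log2 scale (adjusted p = 9.34e-06) and Mmp19 fell by 2.25 ± 0.38 (adjusted p = 0.00204), and in both genes all 4 anti-γδTCR tumors lay below all 3 controls (10.8% of all genes). These 2 of 9 members were then called lower and 0 higher, while 14.3% of all genes were called (4.85% lower, 9.45% higher). The treated libraries and the libraries with a pseudogene share over 1% are the same 4, so the treatment and whatever sets those libraries apart cannot be told apart. The 1 control with that property, replicate 4, had 9.28 CPM of Mmp13 and 13.6 CPM of Mmp19, inside the ranges of the treated tumors (3.99 to 12.9 and 4.14 to 20.4 CPM).

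Macrophage markers moved with this split. All 8 were detected, and their summed level was 1655 to 3200 CPM in the 18 libraries and 726 to 1216 CPM in the 5, with 953 CPM in replicate 4. Without replicate 4, 4 of the 8 (Adgre1, C1qb, Cd68 and Csf1r) were called lower in the γδ comparison, against 4.85% of all genes, and the median log2 fold change of the list was -0.92. The medians of the list in the 18 and the 5 libraries were 2308 and 953 CPM, a smaller step than the 19.8-fold of Mmp13. Fibroblast markers had a median of 0.22 there, with 0 of 12 called. Neutrophil markers fell as well, with 4 of 4 tested genes below 0 (median -0.92) and 0 called. The other cell type lists had medians above 0. These were pericyte and smooth muscle (0.62), basal and myoepithelial (0.61), T cell (0.48) and skeletal muscle markers (0.47). Adipocyte (0.35), luminal epithelial (0.31) and endothelial markers (0.03) followed. The part of these cell types in the values of Mmp13 and Mmp19 was not tested.

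**Figure D5:**
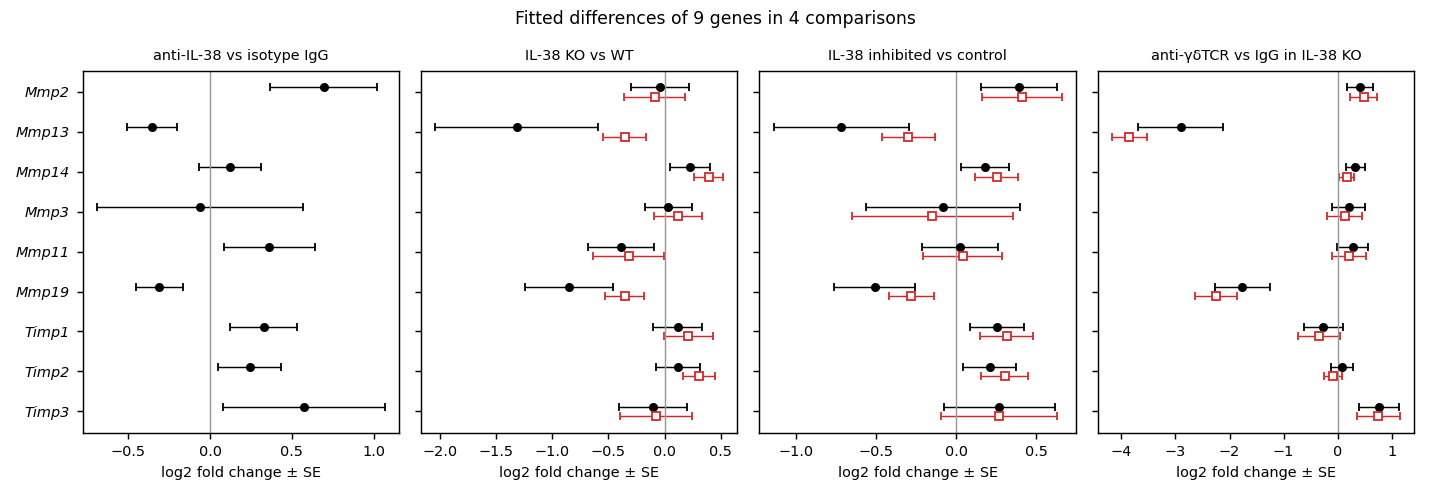
Fitted log2 fold change ± SE (limma, normalized counts) of 9 genes in 4 comparisons, with black circles for all libraries and red squares without replicate 4 of IL-38 KO + IgG; each panel has its own axis. Mmp13 and Mmp19 lie left of 0 in all panels and change most on leaving that library out, for Mmp13 from -1.32 to -0.36 against WT and from -2.90 to -3.85 for anti-γδTCR against IgG in IL-38 KO tumors.

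Of 17 further MMP and TIMP genes, Mmp1a, Mmp1b and Mmp21 had no read in any library, and 9 to 11 were tested per comparison. None passed with all libraries in any of the 4 comparisons. After anti-IL-38 their median log2 fold change was 0.02, with Mmp27 at -0.98 ± 0.36 (SE; adjusted p = 0.425) as the largest. In the γδ comparison without replicate 4 of IL-38 KO + IgG, 3 of 9 were called lower and 0 higher, against 4.85% of all genes lower and 9.45% higher. The 3 were Mmp8, Mmp12 (-6.95 ± 0.72, adjusted p = 5.15e-05) and Mmp27 (-3.04 ± 0.71, adjusted p = 0.0144), all of the chromosome 9 cluster. Mmp8 had no read in 3 of the 4 treated tumors and 5.57 CPM in the fourth.

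Genes that act on MMPs were also listed, 16 in all, from receptors and activators to inhibitors, and 15 were tested. None passed with all libraries. Their median log2 fold change was 0.24 after anti-IL-38 and 0.31 in IL-38 KO tumors, and Plat, which encodes tissue plasminogen activator, was the largest in both (1.38 ± 0.60 and 1.14 ± 0.29, adjusted p = 0.461 and 0.225). In the γδ comparison without replicate 4, Plaur (urokinase receptor, -3.23 ± 0.50, adjusted p = 0.001) and Plau (urokinase, -1.10 ± 0.27, adjusted p = 0.0196) were called lower. Furin, the convertase that activates pro-MMP14, was the 1 gene called higher (0.86 ± 0.15, adjusted p = 0.00219). Of all genes, 4.85% were called lower and 9.45% higher there.

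All 14 ADAM and ADAMTS proteases were tested, and none passed with all libraries. Adam9 had 0.80 ± 0.39 after anti-IL-38 and 1.40 ± 0.32 in IL-38 KO tumors (adjusted p = 0.482 and 0.21). Adam8, a myeloid protease, and Adam9 were the 2 called in the γδ comparison without replicate 4, both lower (-4.55 ± 0.35 and -1.24 ± 0.36, adjusted p = 5.33e-06 and 0.0417). In that comparison 4.85% of all genes were called lower and 9.45% higher.

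The AP-1 subunits and cytokines known to induce MMP genes were 16 genes, of which 13 to 15 were tested. None passed with all libraries. In the γδ comparison without replicate 4, 5 of 13 were called higher and 2 lower, against 9.45% of all genes higher and 4.85% lower. The treated libraries there are all among the 5 set apart, so the treatment and this split cannot be told apart. Those called higher were Fosl1 (4.05 ± 0.63, adjusted p = 0.0011), Il1b (2.85 ± 0.37, adjusted p = 0.000298), Fosb (2.64 ± 0.55, adjusted p = 0.00692), Jun (1.03 ± 0.17, adjusted p = 0.00164) and Fosl2 (0.73 ± 0.20, adjusted p = 0.0302). Tgfb1 (-0.86 ± 0.21, adjusted p = 0.0189) and Lif (-1.91 ± 0.56, adjusted p = 0.0452) were called lower. Mmp3, whose promoter holds the AP-1 letters, had 0.13 ± 0.32 in the same comparison (adjusted p = 0.847), and Mmp13 was lower as given above. Whether these subunits bear on Mmp3 or Mmp13 was not tested.

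For 5 members another gene overlaps in the annotation, and the strand setting used for counting is not given in the sources used here. Mmp11 is overlapped by Chchd10 (340 to 1407 reads per library) and Mmp19 by Tmem198b (62 to 179 reads) on the opposite strand, so their reads could be shared. The genes overlapping Timp1, Timp2 and Timp3 had at most 60 reads.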

How the data were processed

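RNA of 23 PyMT tumors was sequenced with QuantSeq 3′ FWD. Per the labels, the submitters' processing notes name STAR, HTSeq, DESeq2 and GRCm39, without versions. The deposited signal is a normalized count, for which the authors had divided the reads of each library by its size factor, in a table of 19 libraries and a table of 8. The 4 libraries of IL-38 KO + IgG are in both, and each comparison stayed within 1 table. Division by the value of a single read returned whole reads for 100% of the values (tolerance 0.0001%), from which depth and CPM were computed. In WT + IgG replicate 1 a read was worth nearly 1, so this check says nothing there.

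Of 47643 identifiers, 47224 had a symbol in GENCODE M21. The filter was a mean normalized count of 5 in the libraries compared. Tests used limma 3.58.1 under R 4.3.3, two-sided, with a trended prior and Benjamini-Hochberg adjustment at 0.05, after a pseudocount of 1 and log2. Alternatives were pseudocounts of 0.5 and 5, no filter or a mean of 20, TMM, edgeR 4.0.16 and DESeq2 1.42.0 on whole reads, blocking by replicate number, a term for the experiment, and leaving out each library. The fits were tested on simulated counts. Members were all described, and further genes of the lists were named if they passed, had no reads, or were among the 3 largest changes of their list. The members and lists were chosen with earlier results of these data known.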

Additional observations from a re-analysis of the deposited data

Results flagged for a closer look

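Of 45 sets (9 genes in 5 groups), 7 had 1 tumor whose gap to the nearest other, on the log2(CPM + 1) scale, exceeded Dixon's limit, where chance flags about 1 in 20. Replicate 4 of IL-38 KO + IgG was such a tumor for Mmp13 (9.28 CPM) and Mmp19 (13.6 CPM). Replicate 5 of isotype IgG stood below its group for Mmp3 (4.09 CPM) and Timp1 (17.6 CPM). Replicate 6 of anti-IL-38 stood above its group for Mmp14 (372 CPM) and Timp2 (2029 CPM). Replicate 3 of IL-38 KO + anti-γδTCR stood below its group for Mmp11 (3.35 CPM). No member met the rule for opposite effects of the antibody and the knockout. The log2 fold changes still differed in sign for Mmp2, Mmp3, Mmp11 and Timp3. After anti-IL-38 they were 0.69, -0.06, 0.36 and 0.57 in that order. In IL-38 KO against WT they were -0.04, 0.03, -0.39 and -0.10. No member passed in either comparison.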

How the results depend on the processing

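Of the 9 members tested, Mmp13 and Mmp19 had negative log2 fold changes in all 4 comparisons under every alternative run, and Mmp2 had positive ones except in IL-38 KO against WT. The number of genes called moved more than any member. It was 0 after anti-IL-38, 1 in IL-38 KO against WT, 0 with the experiments joined, 0 in the γδ comparison and 1 for the interaction, against 75, 298, 70, 1030 and 10 with DESeq2. With edgeR it was 0, 0, 1, 0 and 0, and 1 with the experiment as a term in the joined comparison. DESeq2 called 2 members in the γδ comparison, Mmp13 (-3.40) and Mmp19 (-1.80), and no other alternative with all libraries called any member in any comparison. The cause was not tested. Leaving out 1 library at a time gave 0 to 6 genes after anti-IL-38 (6 without replicate 3 of isotype IgG), 0 to 7 in IL-38 KO against WT (7 without replicate 3 of WT + IgG or replicate 4 of IL-38 KO + IgG), 0 to 23 with the experiments joined (23 without replicate 3 of isotype IgG), 0 to 2357 in the γδ comparison (2357 without replicate 4 of IL-38 KO + IgG) and 0 to 2 for the interaction (2 without replicate 2 or 4 of IL-38 KO + IgG). Members called in the γδ comparison were then 0 to 2.

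Small differences changed sign. Mmp3 after anti-IL-38 was 0.27 with edgeR and with DESeq2 and -0.49 to 0.38 over the libraries left out, and with the experiments joined it was 0.068 with edgeR, 0.069 with DESeq2 and -0.37 to 0.23. Mmp11 with the experiments joined was -0.0091 with TMM, -0.057 with edgeR, -0.055 with DESeq2 and -0.091 to 0.16 over the libraries left out. Over the libraries left out, Mmp14 was -0.0059 to 0.23 after anti-IL-38. In IL-38 KO against WT, Mmp2 was -0.29 to 0.20, Mmp3 -0.11 to 0.18 and Timp3 -0.37 to 0.055. In the γδ comparison Mmp3 was -0.031 to 0.49, Timp1 -0.58 to 0.072 and Timp2 -0.091 to 0.21. For the interaction Mmp13 was -1.39 to 0.0019. None of these passed the threshold, and the cause was not tested.

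Same-numbered libraries deviated from their group means with correlations of -0.17 to 0.07, and 1 of 13 matched its own number best, so they share only a number. With the replicate number as a block, 1 gene was called after anti-IL-38, 0 in IL-38 KO against WT and 0 for the interaction. Under the block Mmp3 was 0.16 and Mmp14 -0.0059 after anti-IL-38, and Mmp3 was 0.10 and Mmp11 -0.067 with the experiments joined. The block called no member.

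Between 3 and 4 members passed with the fibroblast markers when 1 library was left out, with Mmp14 as the fourth without replicate 6 of anti-IL-38. Without the 2 libraries farthest in marker level 1 member, Mmp3, passed with the fibroblast markers over 23 libraries and 0 over 18, a test chosen after seeing the data. The r of Timp2 was -0.084 to 0.080. With the macrophage markers, chosen after seeing the data, 3 members passed over 23 libraries in place of 2 over 18.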
